A study of Mus musculus with 4 samples.

Results

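The genes described here are the core components of the YAP/TEAD transcription module and a panel of its usual target genes, followed by name through 3′ mRNA sequencing libraries of MC38 cells, a mouse colon carcinoma line. The rule took 10 gene symbols, and all 10 were found among the 26322 genes of the expression table. They were Yap1, Wwtr1, Tead1, Lats2, Amotl2, Ajuba, Cyr61, Ctgf, Ankrd1 and Axl, and the rule used no measured value. WT cells had been electroporated with Cas9 protein and a non-targeting guide RNA, and CbfbKO cells with Cas9 protein and a guide against Cbfb, so that both groups carried the electroporation and the nuclease. Cbfb encodes CBFβ, the non-DNA-binding partner of the RUNX transcription factors. Cells were collected at least 1 week later as edited populations, and no source describes a single clone. Of the replicates collected, 2 WT and 2 CbfbKO libraries were sequenced, and the remaining one of each group was not used because of its RNA quality. The labels do not say whether the 2 libraries of a group came from separate cultures, so the spread between them may be technical. For each p-value and SE the main test, limma, combined a gene's own spread between libraries with that of genes of similar level. Neither therefore measures the spread of that gene alone.

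YAP (Yap1) and TAZ (Wwtr1) are transcriptional coactivators that cannot bind DNA by themselves and reach their target genes mainly through the TEAD factors. The Hippo pathway restrains them: the LATS kinases phosphorylate YAP and TAZ, which are then held in the cytoplasm or degraded. In the intestine the module is known for its part in regeneration after injury and in tumour growth. Because this control acts largely on protein and its location, the RNA of Yap1, Wwtr1 and Tead1 is not a measure of the module's activity, and target genes are commonly read for that purpose.

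TEAD factors recognise a short element, and matches to it in front of the target genes are shown here so that the genes read as targets can be compared by sequence. RefSeq promoter sequences of the GRCm38.p6 build were found for 8 of the 10 genes. Tead1 and Ctgf had no entry. The letters GGAATG, read on either strand, occurred in the 250 bases before the start site of 7 of these 8 genes, against 12.6% of all 32851 windows of that length. Lats2 was the one without them, which says only that these letters are not in its window. The 30-base contexts of the target genes Ankrd1, Cyr61, Axl and Amotl2 are printed from 5′ to 3′ on the strand of the gene, with the TEAD letters in capitals (CATTCC is GGAATG on the other strand).
Ankrd1, 210 bases before the start, chr19:36120045-36120074, minus strand: gcggTGTGGTcactgccaaaGGAATGaccc
Ankrd1, 123 bases before the start, chr19:36119950-36119979, minus strand: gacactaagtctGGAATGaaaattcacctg
Cyr61, 103 bases before the start, chr3:145650071-145650100, minus strand: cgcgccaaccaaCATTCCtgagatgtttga
Axl, 233 bases before the start, chr7:25788949-25788978, minus strand: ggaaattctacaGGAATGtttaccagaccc
Amotl2, 65 bases before the start, chr9:102717727-102717756, plus strand: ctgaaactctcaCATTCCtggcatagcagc

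Ankrd1 and Ajuba were the members with 2 such matches each. In Ankrd1 the first context also holds TGTGGT, capitalised as well, which is one of the letter strings TGTGGT or TGCGGT that RUNX factors recognise. Those strings, on either strand, occurred in 18.6% of all windows and in 2 members, Ankrd1 and Amotl2, where they did not overlap the TEAD letters. The AP-1 letters TGANTCA occurred in 6.75% of all windows and in 0 of the 8 members with a window. The GENCODE M21 annotation places both Ankrd1 contexts and that of Amotl2 within the untranslated first part of longer transcripts, and the Cyr61 and Axl contexts upstream of the gene. A match of letters describes the sequence and is not evidence of binding.

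The authors deposited log2 CPM, the log2 of a gene's reads scaled to its library's total, with a small prior count added. A gene without reads has the value -0.79 in every library, and since values rise from there in steps of single reads, the reads behind each value were recovered. The WT libraries held 3396192 and 3335116 reads and the CbfbKO libraries 3907936 and 3189035, so that 1 read is worth 0.256 to 0.314 CPM. Because each transcript is read from its 3′ end, reads were not divided by gene length. Cbfb itself stood at 86.9 and 85.5 CPM in the WT libraries and at 32.0 and 39.2 CPM in the CbfbKO libraries, a fitted level 2.41-fold lower (difference -1.27 ± 0.12 SE on the log2 scale, limma adjusted p = 1.8e-07). Reads from the end of the transcript do not show the edited sequence, so this level does not check the edit. Of the 12 colon epithelium markers examined, 6 had no read in any library, among them Krt18, Cdx1, Vil1 and Muc2, and Epcam and Cdh1 had at most 2 reads in a library. The summed level of that list was 1.77 and 1.80 CPM in WT and 1.79 and 1.57 CPM in CbfbKO libraries, so the defining markers of the labelled tissue were nearly absent. The immune markers summed to 0 to 1.54 CPM and the endothelial markers to 0.314 to 0.600 CPM. The fibroblast markers summed to 186 and 173 CPM in WT and 136 and 145 CPM in CbfbKO libraries, with Lum and Thy1 at 0 reads in every library. Within that list Col3a1 alone passed the test (386 and 354 reads in WT, 217 and 197 in CbfbKO). The 7 markers other than Col3a1 summed to 72.1 and 66.6 CPM in WT and to 80.3 and 83.7 CPM in CbfbKO libraries, so the lower sum was that of Col3a1. Of the 5 markers tested, 3 had positive differences (Pdgfra, Pdgfrb and Col1a1) and 2 negative (Col3a1 and Dcn), with a median of 0.41 on the log2 scale. In such bulk samples fewer cells of a type and less RNA per cell cannot be told apart.

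Among the members, Ankrd1 was the one gene whose level differed between CbfbKO and WT cells at an adjusted p under 0.05, and it fell. Ankrd1 encodes CARP, a nuclear ankyrin-repeat protein first studied in muscle and widely used as a YAP/TEAD readout. Of 9 members tested, 0 were called higher and 1 lower. Over all 12207 genes tested with limma, 1.57% were called higher in CbfbKO and 1.25% lower. By the unadjusted p under 0.05, Tead1 and Amotl2 were higher and Ankrd1 was lower, where 9.67% of all genes tested were higher and 5.23% lower. Both CbfbKO libraries lay above both WT libraries for 4 members and below them for 3, where 27.4% of all genes tested lay above and 16.8% below. The smallest p that an exact two-sided permutation test can give for a single gene with 2 libraries against 2 is 0.333, so no member could be called by such a test.

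**Figure D1:**
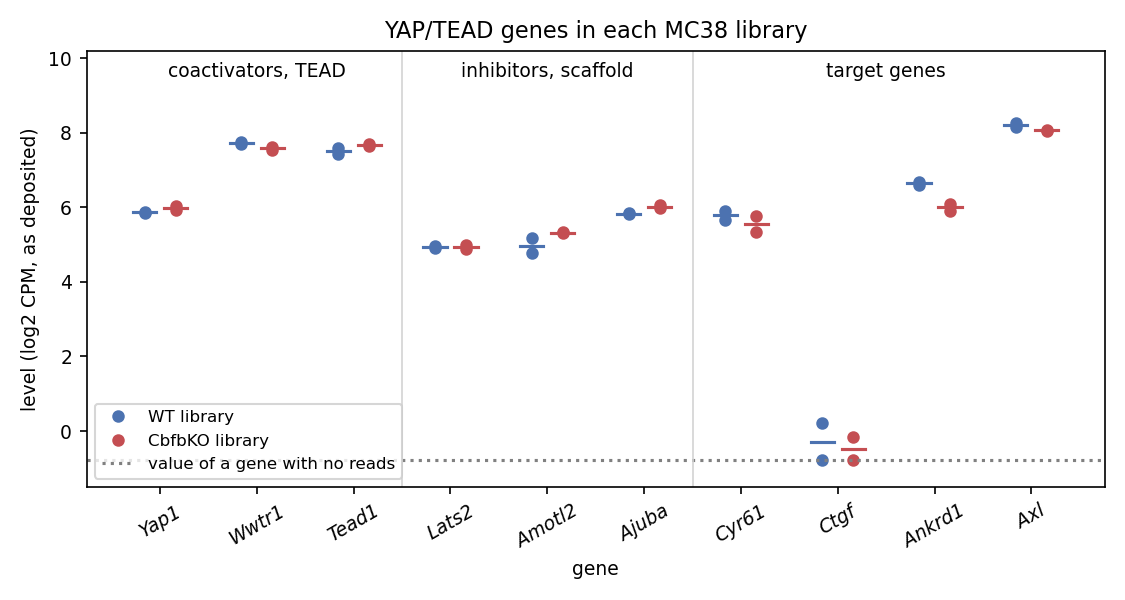
Level of each of the 10 genes in each library (y axis, log2 CPM as deposited; x axis, genes ordered by role). Points are libraries and short bars are group means, and the dotted line is the value of a gene with no reads. Ankrd1 shows the widest gap between groups, and Ctgf lies at or near the line of no reads in every library.

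The coactivators and their DNA-binding partner were all well expressed. Yap1 (chr9:7931999-8004596) stood at 58.3 and 57.0 CPM in the WT libraries and at 65.0 and 60.5 CPM in the CbfbKO libraries. The CbfbKO libraries were both higher, but by a log2 difference of 0.12 ± 0.11 (SE) that did not pass the test (limma adjusted p = 0.687) and was 0.07 without CbfbKO replicate 1. Its paralog Wwtr1 (chr3:57455649-57575910), which encodes TAZ, moved the other way, from 207 and 216 CPM in WT to 187 and 197 CPM in CbfbKO libraries. That log2 difference of -0.14 ± 0.07 (SE) did not pass either (limma adjusted p = 0.385), with a 95% interval of -0.30 to 0.01. Wwtr1 took 78.0% and 79.1% of the reads of the coactivator pair in WT libraries and 74.2% and 76.5% in CbfbKO libraries. TAZ transcripts were thus the more abundant of the pair in every library. For the CbfbKO replicate with the lowest Wwtr1 share the Wilson 95% interval was 71.3% to 76.8%, and such intervals cover counting error only.

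Tead1 (chr7:112679318-112906807), one of the TEAD factors, was at 170 and 191 CPM in WT and at 200 and 207 CPM in CbfbKO libraries. Both CbfbKO libraries were above both WT libraries, although the nearest values of the groups, 191 and 200 CPM, were closer to each other than the WT libraries were. The log2 difference was 0.17 ± 0.08 (SE, limma adjusted p = 0.291), and it was 0.09 without WT replicate 1 and 0.25 without WT replicate 2. Among the reads of the TEAD genes, Tead1 took 64.0% and 66.7% in WT and 62.8% and 65.4% in CbfbKO libraries, so the shares overlapped. Tead2 gave most of the remaining TEAD reads, and Tead3 and Tead4 were low, with 7 to 16 and 28 to 47 reads in a library.

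Lats2, Amotl2 and Ajuba act on the module's restraint, and Lats2 and Amotl2 are also known YAP/TEAD targets. Lats2 (chr14:57689662-57758388), a kinase that phosphorylates YAP and TAZ, was at 30.6 and 29.7 CPM in WT and at 31.0 and 28.8 CPM in CbfbKO libraries. The WT values lay between the CbfbKO values, and the log2 difference of -0.01 ± 0.15 (SE) did not pass the test (limma adjusted p = 0.983). Its 95% interval was -0.33 to 0.30. Leaving out CbfbKO replicate 2 or WT replicate 1 turned the sign, to 0.04 and 0.01. Lats2 overlaps the gene model Gm49361 on the same strand by up to 1301 exonic bases, and reads in that stretch may have been assigned to neither or either gene.

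Amotl2 (chr9:102716672-102733418) encodes an angiomotin, a junction protein that binds YAP and TAZ and keeps them out of the nucleus. It was at 26.8 and 35.4 CPM in WT and at 39.7 and 39.2 CPM in CbfbKO libraries. The WT libraries lay far apart and the CbfbKO libraries close together, and the groups did not overlap. The log2 difference of 0.35 ± 0.15 (SE) was the largest increase among the members and did not pass the test (limma adjusted p = 0.268). WT replicate 1 set much of its size, since without that library the difference was 0.15 and without WT replicate 2 it was 0.55, neither past the threshold. Ajuba (chr14:54567472-54577558), a LIM-domain scaffold that binds LATS kinases, was at 56.8 and 55.5 CPM in WT and at 66.0 and 62.1 CPM in CbfbKO libraries. The groups did not overlap, and the log2 difference of 0.19 ± 0.11 (SE) did not pass the test (limma adjusted p = 0.469).

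Of the 4 remaining members, which are read as targets of the module, Ankrd1 (chr19:36111961-36120099) carried the one difference past the threshold. It stood at 96.6 and 102 CPM in the WT libraries, from 328 and 341 reads, and at 68.1 and 59.3 CPM in the CbfbKO libraries, from 266 and 189 reads. The CbfbKO libraries were both below the WT libraries, and the exact Poisson 95% intervals of the closest values, 86.4 to 108 CPM for WT replicate 1 and 60.1 to 76.8 CPM for CbfbKO replicate 1, did not meet. These intervals also cover counting error only. The fitted level was 1.56-fold lower in CbfbKO cells (95% interval 1.34 to 1.81), a log2 difference of -0.64 ± 0.10 (SE) with a limma adjusted p of 0.00036. By p-value Ankrd1 ranked 86 of the 12207 genes tested. The size of the difference was -0.74 to -0.54 over all 14 other fits, negative in each, and the call was kept in 9 of them. It was lost without a filter on low values (adjusted p = 0.227), without the mean-variance trend (0.240), with quantile normalisation (0.0529), without CbfbKO replicate 1 (-0.74, 0.366) and without CbfbKO replicate 2 (-0.54, 0.477). The last 2 of these fits, and those without the filter or the trend, called 0 genes among all tested, so the calls lost there are not particular to Ankrd1. Each of the 4 fits that leave out a library, including the 2 that kept the call (without a WT library), has a lone library in 1 group. That library is assumed to vary like the pair of the other group, whose spread is combined with the trend over all genes. Of the fibroblast markers given above, Col3a1 was lower in both CbfbKO libraries and the sum of the others higher, and their part in the Ankrd1 difference was not tested.

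**Figure D2:**
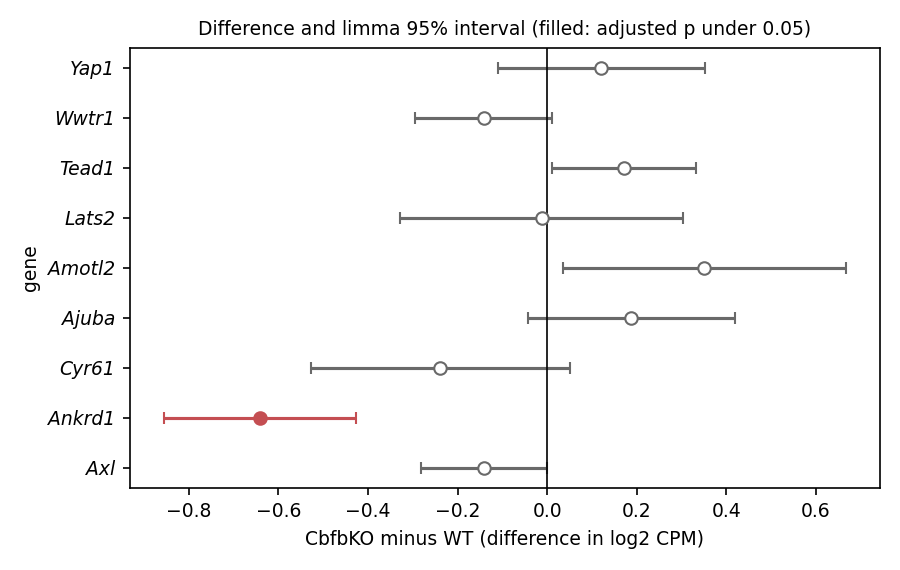
Difference between CbfbKO and WT in log2 CPM (x axis) for the 9 members tested (y axis), with limma's 95% interval as bars and a filled point where the adjusted p is under 0.05. The Ankrd1 interval of -0.86 to -0.43 lies apart from 0 and is the one filled point, while the intervals of Amotl2 and Tead1 exclude 0 before adjustment only.

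Cyr61 (chr3:145646976-145649981, Ccn1 in newer annotation) encodes a secreted matricellular protein and is among the most used YAP/TEAD targets. Its libraries were at 50.4 and 59.4 CPM in WT and at 39.7 and 53.9 CPM in CbfbKO, so that the groups overlapped. The log2 difference of -0.24 ± 0.14 (SE) did not pass the test (limma adjusted p = 0.458). It depended on CbfbKO replicate 1, the lowest library, without which it was -0.02. Without CbfbKO replicate 2 it was -0.46, and without WT replicate 1 and WT replicate 2 it lay between these values, none past the threshold. Its relative Ctgf (chr10:24595442-24598683, Ccn2 in newer annotation), the other classical secreted target, had 2 and 0 reads in the WT libraries and 0 and 1 read in the CbfbKO libraries. It did not pass the filter on low values and no fold is given. A count of 0 allows up to 0.900 CPM in WT replicate 2 and up to 0.768 CPM in CbfbKO replicate 1, and a difference between the groups was not detectable at this depth. The same libraries held 155 to 198 reads of Cyr61, so of these secreted targets 1 was well read and the other nearly absent. Ctgf shares up to 347 exonic bases with the antisense transcript Gm15270, and the use of strand in counting is not given in the sources used here.

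Axl (chr7:25757273-25788705) encodes a receptor tyrosine kinase of the TAM family and was the most abundant member in every library. It was at 305 and 285 CPM in WT and at 271 and 263 CPM in CbfbKO libraries. Both CbfbKO libraries were below both WT libraries, by a log2 difference of -0.14 ± 0.07 (SE) that did not pass the test (limma adjusted p = 0.335) and was -0.09 without WT replicate 1. Among reads of the TAM receptor genes Axl, Tyro3 and Mertk, Axl took 90.3% and 91.3% in WT and 87.5% and 86.4% in CbfbKO libraries. The CbfbKO shares were both lower, and Tyro3 gave nearly all of the remainder.

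Ordered by mean level, the members ran Axl, Wwtr1, Tead1, Ankrd1, Yap1, Ajuba, Cyr61, Amotl2, Lats2 and Ctgf. In WT libraries Axl, Wwtr1, Tead1 and Ankrd1 were each separated from their neighbours, and Ajuba and Cyr61, like Amotl2 and Lats2, overlapped. In CbfbKO libraries Tead1 stood above Wwtr1, without overlap, while Ankrd1 overlapped with Yap1, Yap1 with Ajuba, and Cyr61 with Amotl2. Ankrd1 exceeded Yap1 by 0.78 on the log2 scale in WT libraries and by 0.02 in CbfbKO libraries. The median difference of the 9 members tested was -0.01 on the log2 scale, against 0.04 over all genes tested, with 4 members positive and 5 negative.

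The genes around the module were read from lists of pathway members. Of the Hippo kinase cascade and its upstream scaffolds, 19 of 20 genes were tested, and 0 rose and 0 fell at an adjusted p under 0.05 with limma. At an unadjusted p under 0.05, 2 of them were higher and 2 lower, where 9.67% of all genes tested were higher and 5.23% lower. The most abundant were Map4k4 (a log2 difference of 0.17 ± 0.06 SE), Taok1 (0.12 ± 0.07) and Wwc2 (0.12 ± 0.10), which are kinases or scaffolds that feed the LATS kinases. The Taok1 difference was 0.23 without WT replicate 1 and 0.01 without WT replicate 2, and that of Wwc2 0.24 and -0.01. The list's median was 0.12, and 17 of its 19 tested genes were positive, where 6958 of all 12207 were. Lats1, the paralog of Lats2, had 104 and 125 reads in WT and 95 and 81 in CbfbKO libraries, a log2 difference of -0.44 ± 0.16 (SE, limma adjusted p = 0.166). Beside it Lats2 had 104 and 99 reads in WT and 121 and 92 in CbfbKO libraries. By reads Lats1 was level with or above Lats2 in WT and below it in CbfbKO libraries. The Wilson 95% intervals of the Lats1 share of the pair were 43.3% to 56.7% and 49.3% to 62.2% in WT. In CbfbKO libraries they were 37.5% to 50.6% and 39.5% to 54.2%. Each interval includes equal shares, so counting error covers this order in every library.

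Among the TEAD partners, angiomotins and LIM proteins related to Ajuba, 17 of 19 genes were tested and again 0 passed in either direction with limma at an adjusted p under 0.05, with 3 higher and 0 lower at an unadjusted p under 0.05 (9.67% and 5.23% of all genes tested). Amotl1, the angiomotin with the most reads, had 616 and 599 reads in WT and 864 and 668 in CbfbKO libraries, a log2 difference of 0.25 ± 0.07 (SE, limma adjusted p = 0.0672). Amotl2 took 12.1% and 15.5% of the angiomotin reads in WT and 14.5% and 15.0% in CbfbKO libraries, between Amotl1 and Amot, which had 38 to 49 reads in a library. Tead2 was at 0.32 ± 0.10 on the log2 scale (SE, limma adjusted p = 0.0774), the same sign as Tead1. Strn3 (0.07) and Fgfr1op2 (-0.12), parts of the STRIPAK phosphatase complex, were the other abundant genes of the list. Ajuba took 36.1% and 33.2% of the reads of Ajuba, Limd1 and Wtip in WT and 35.1% and 35.5% in CbfbKO libraries, and the groups overlapped.

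**Figure D3:**
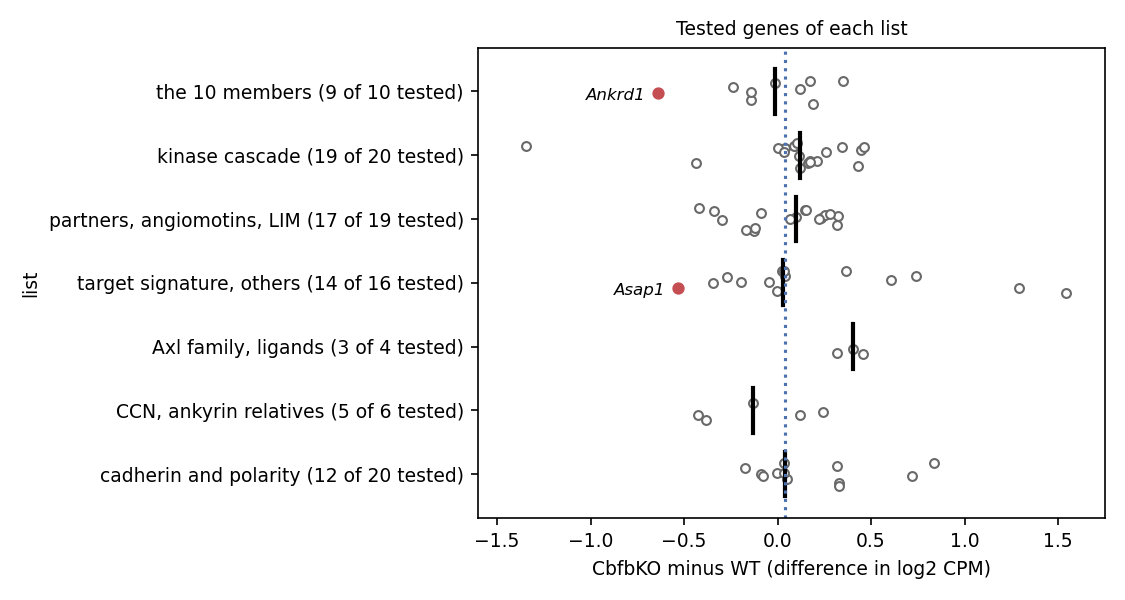
Difference between CbfbKO and WT in log2 CPM (x axis) for each tested gene of the 10 members and of 6 lists of related genes (y axis). Filled points have an adjusted p under 0.05, black bars are list medians and the dotted line is the median of all genes tested, 0.04. Ankrd1 at -0.64 and Asap1 at -0.53 are the filled points.

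The other genes of a published YAP/TAZ target signature, chosen elsewhere and not on these libraries, numbered 16, of which 14 were tested. With limma at an adjusted p under 0.05, 0 rose and 1 fell, where 1.57% of all genes tested rose and 1.25% fell. At an unadjusted p under 0.05, 4 were higher (Nuak2, Rbms3, Tgfb2 and Ccdc80) and 1 was lower, where 9.67% of all genes tested were higher and 5.23% lower. Of these, Rbms3 had a log2 difference of 0.74 (limma adjusted p = 0.172), with 34 and 20 reads in WT and 53 and 42 in CbfbKO libraries. Tgfb2 was at 0.61 (0.271). Nuak2 was at 1.54 (0.138), with 0 and 4 reads in WT and 10 and 7 in CbfbKO libraries. Its WT libraries alone would not have passed the filter. The gene that fell was Asap1, which encodes a GTPase-activating protein for ARF proteins, with 1128 and 1210 reads in WT and 951 and 753 in CbfbKO libraries. Its log2 difference was -0.53 ± 0.07 (SE, limma adjusted p = 1.75e-05), and like that of Ankrd1 the call was lost without the filter, without the trend and without either CbfbKO library. In those 4 fits 0 genes of all tested were called, and the Asap1 difference stayed between -0.55 and -0.51. The abundant signature genes Myof (0.04 ± 0.07 SE) and Crim1 (0.03 ± 0.12 SE) lay near 0, and the list's median was 0.03. Ccdc80 had 0 reads in both WT libraries and 2 and 4 in the CbfbKO libraries, so that it passed the filter through the CbfbKO libraries alone and could only be higher, and the median was the same with that gene set at the bound that 3 reads over the WT group give. Igfbp3 and Nt5e had no reads in any library.

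Of the Axl receptor family and its ligands, Tyro3 (0.41 ± 0.15 SE), Pros1 (0.32 ± 0.15 SE) and Mertk (0.46 ± 0.52 SE) were tested and none passed. At an unadjusted p under 0.05, 1 of the 3 was higher, against 9.67% of all genes tested. Gas6, the ligand with the highest known affinity for Axl, had 0 reads in every library, and Mertk had at most 4. Of the CCN family and ankyrin-repeat relatives, 5 of 6 genes were tested and 0 passed, where 1.57% of all genes tested were called higher and 1.25% lower. None had an unadjusted p under 0.05 in either direction, where 9.67% of all genes tested were higher and 5.23% lower. With 5 genes tested, such counts say little about the family. Wisp1, another secreted CCN protein, was more abundant than Cyr61, with 591 and 602 reads in WT and 687 and 473 in CbfbKO libraries. Cyr61 took 21.6% and 24.2% of the CCN reads in WT and 17.8% and 26.1% in CbfbKO libraries, so the CbfbKO libraries bracketed the WT libraries. Nov (-0.43 ± 0.36 SE) and Ankrd23 (-0.38 ± 0.44 SE), a relative of Ankrd1, were low and did not pass.

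The 5 genes whose values, centred on their own mean, lay nearest to those of Ankrd1 over the 4 libraries were Orc1, Slc6a9, Pak3, Khk and Plcb1. Their Euclidean distances to it on the log2 scale ran from 0.0248 for Orc1 to 0.0807 for Plcb1. Their log2 differences, which this choice ties to that of Ankrd1 and which are given as a description, were -0.65, -0.64, -0.59, -0.58 and -0.67 in that order. They were the nearest of 12206 candidate genes over only 4 libraries.

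**Figure D4:**
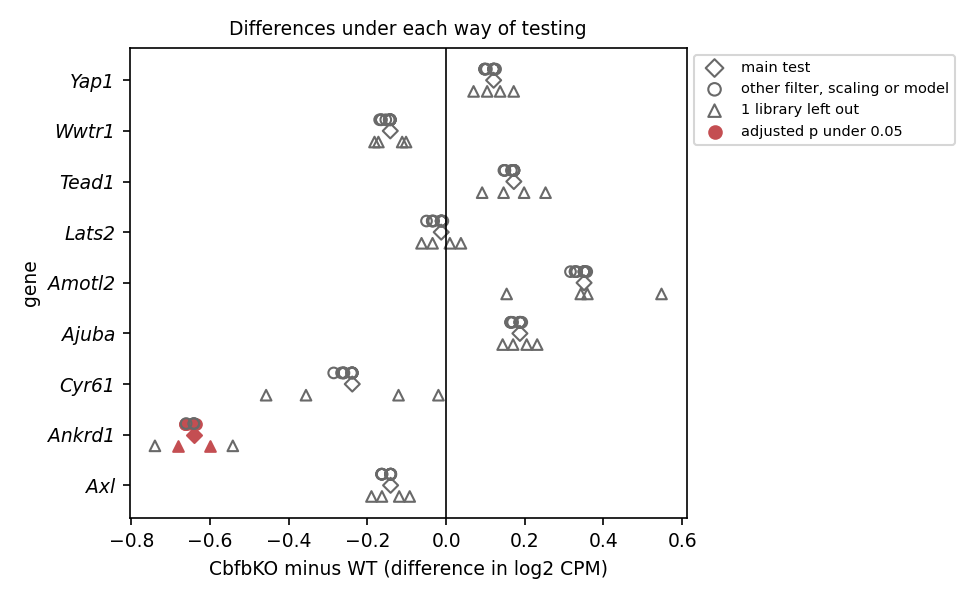
Difference between CbfbKO and WT in log2 CPM (x axis) for each tested member (y axis) under the main test (diamond), under other filters, scalings and models (circles) and with 1 library left out (triangles). Filled symbols have an adjusted p under 0.05, and circles of the same value lie over each other. The signs held for 8 of the 9 members, Lats2 being the exception, and filled symbols occur for Ankrd1 alone.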

How the data were processed

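MC38 RNA was sequenced from its 3′ ends in 2 WT and 2 CbfbKO libraries. Per the submitters' processing notes, reads were trimmed with cutadapt 1.9, aligned to mm10 with HISAT2 2.1.0 and counted per gene with featureCounts 2.0.1, while the study's methods name an older release of the counter. The authors deposited log2 CPM values, which imply a prior of 2 reads scaled to library size. The annotation, the use of strand and the handling of reads matching several genes are not given in the sources used here, and could change paralogs and overlapping genes. Reads were recovered from the steps of the values, with 100% of those under 20000 reads within 0.1 of a whole number. Groups and replicates came from the labels.

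The filter asked for a log2 CPM of 0 or more in 2 or more libraries and kept 12207 genes. These were tested with limma 3.58.1 (R 4.3.3), taking the deposited log2 CPM as it stands (mean-variance trend, two-sided, Benjamini-Hochberg adjustment over all genes tested, threshold 0.05). The study names voom with limma, which takes counts, so voom on the recovered reads was an alternative. The test was checked on simulated data. Named genes are all 10 members, Cbfb, in each list every gene past the threshold and the 3 with the highest mean level, and the 5 nearest profiles to the member with the smallest p. Lats1, Amot, Limd1, Wtip, Tead2, Tead3, Tead4, Gas6, Igfbp3, Nt5e, Ccdc80, Nuak2, Rbms3, Tgfb2, Taok3, Fat1, Fat3, Crb1, Crb3 and the marker genes other than Col3a1 were named after their values were seen. The members and lists were chosen with earlier results of these data known. Positions are from GENCODE M21 (GRCm38) and promoters from RefSeq. Figures were drawn with matplotlib 3.10.9.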

Additional observations from a re-analysis of the deposited data

How the results depend on the processing

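The Ankrd1 call, the 1 member called lower, was absent (0 members) without the filter, without the trend and with quantile normalisation, and over the libraries left out the count ran from 0 to 1. No setting called a member higher. Over all genes, higher calls numbered 0 without the filter, 0 without the trend, 39 with quantile normalisation, 300 at a minimum of 5 CPM, 103 at an adjusted p under 0.01 and 338 under 0.1, and lower calls 0, 0, 44, 209, 97 and 223 in the same settings. Leaving out a library gave 0 to 115 higher and 0 to 86 lower calls. Without the filter 1896 genes, and without the trend 1461, had an unadjusted p under 0.05. The cause was not tested. The main test called 192 genes higher and 153 lower, and scaling turned this balance. Median centring gave 176 higher and 188 lower. With ribosomal RNA genes left out of the totals the counts were 155 and 165, and with median-scaled voom 199 and 223. The median difference over all genes, 0.04 in the main test, was 0.02 in each of these settings. The Cbfb difference of -1.27 had the same size without the filter (adjusted p = 0.143) and without the trend (0.115), and ran from -1.41 to -1.12 over the libraries left out, with no call without either CbfbKO library (0.193 and 0.267).

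List counts changed as follows. In the kinase cascade Taok3 passed (1 gene) at a minimum of 5 CPM, with the block and at 0.1. Among partners 2 genes, Amotl1 and Tead2, passed in those settings, and 1, Amotl1, with voom. The signature count was 0 without the filter and without the trend, and 0 to 1 over the libraries left out. In the cadherin and polarity list Llgl1 (1 gene) passed at a minimum of 5 CPM and with the block, and the count was 0 to 1 over the libraries left out.

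Some signs turned. With a library left out Lats2 ran from -0.0624 to 0.0377, Wwc2 from -0.0088 to 0.24, Strn3 from -0.0015 to 0.135, Nov from -0.854 to 0.0015 (positive without CbfbKO replicate 2; -0.43 with all libraries), Pard3 from -0.0866 to 0.0812 and Crim1 from -0.17 to 0.22. Crim1 was also -0.0041 with quantile normalisation and -0.0157 with median-scaled voom. Other genes kept their sign but moved in size. Without WT replicate 1 and without WT replicate 2, Pros1 was at 0.18 and 0.45, Mertk at 0.66 and 0.25 and Ankrd23 at -0.62 and -0.14. Llgl1 was at 0.46 and 0.18 and Dlg1 at -0.0006 and -0.16 in the same fits.

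The deviations of libraries with the same number had a correlation of -0.0042 over 12207 genes, and no label says what such libraries share. With the replicate number as a block, 320 genes were higher and 215 lower, Ankrd1 remained the 1 member called (-0.64), and Cbfb stayed at -1.27. The 7 members whose groups do not overlap were 7 under the 4 other scalings and priors tried, which were chosen after seeing the data. Fewer than 200 reads in most libraries limit Yap1, Ajuba, Cyr61, Amotl2 and Lats2.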

Other observations

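Cadherin and polarity proteins feed signals from cell contacts into the Hippo pathway. Of 20 such genes, 19 were listed and 12 tested with limma, and 0 passed at an adjusted p under 0.05 in either direction, with 2 higher and 0 lower at an unadjusted p under 0.05 (9.67% and 5.23% of all genes tested). The list's median difference was 0.04 on the log2 scale, against 0.04 over all genes tested. The abundant genes were Llgl1 (0.32 ± 0.10 SE, limma adjusted p = 0.107), a basolateral polarity protein, Pard3 (-0.0027 ± 0.09 SE), an apical polarity scaffold, and Dlg1 (-0.08 ± 0.11 SE). Llgl1 had 306 and 246 reads in WT and 407 and 318 in CbfbKO libraries. The atypical cadherin Fat1 was read at 55 to 61 reads in every library, while Fat3, Crb1 and Crb3 had none.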
